A study of Mus musculus with 9 samples.

Results

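Potassium channel subunits were examined as a gene family in cortices of mice at postnatal day 0 (P0), taking every gene of the deposited table whose symbol is Kcn followed by a letter code and a number. This rule found 82 of 24624 genes, among them pore-forming subunits, silent modifiers, cytoplasmic partners and small transmembrane partners. Of these, 74 had a mean of at least 10 normalized counts over the 9 libraries and entered the tests, and 8 (Kcng2, Kcng4, Kcnj13, Kcnj15, Kcnn4, Kcne2, Kcne3 and Kcnmb1) did not. RNA came from the dissected cortex of 1 mouse per library, and the cross was between Fezf2+/- mice and Fezf2+/- mice that carried Fezf2-EnR. Pups of the Fezf2+/+ genotype (n = 3) are called wild type, those of the Fezf2-/- genotype (n = 4) null, and Fezf2-/- pups with the transgene, Fezf2-/-; Fezf2-EnR (n = 2), EnR. Both the null and the EnR pups lack functional Fezf2, a transcription factor of deep-layer projection neurons, and their null allele has the PLAP reporter inserted. Fezf2-EnR is a bacterial artificial chromosome transgene in which the Fezf2 locus drives a fusion of the engrailed repressor domain with the part of FEZF2 that binds DNA, so it acts in cells that would express Fezf2. The comparisons ask which subunits depend on Fezf2, and which respond when a repressor form is put back.

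Potassium channels let potassium leave the cell and so set the resting potential, shorten the action potential and limit repetitive firing. Voltage-gated (Kv) subunits assemble in tetramers, silent modifiers join Kv2 subunits without forming channels alone, Kv7 subunits carry the M-current, and EAG, ERG and ELK channels form the Kcnh family. Inward rectifiers (Kir) and K2P channels act near rest, SK and SLO channels open with calcium or sodium, and auxiliary subunits change trafficking and gating. Cortical neurons acquire these currents gradually around birth.

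Every pore-forming subunit carries the same short selectivity filter, and the family resemblance and the differences between the members that the results turn on are visible in the coding sequence there. The 30 bases around the filter are shown for these 3 members, read from GENCODE M21 transcripts, with the 9 bases that encode its core in capitals.
Kcnh1: accagtgtgGGCTTTGGTaacattgcccca
Kcnn1: ttgtccattGGCTATGGAgacatggtgccg
Kcnf1: accacagtgGGCTATGGTgacatctacccc
Kcnh1 differed from the other 2 in the middle codon of the capitals, as did the rest of the EAG, ERG and ELK class. The SLO gene Kcnt2 and the K2P gene Kcnk2 also differed there, so this is not particular to that class. Kcnf1, a silent modifier, retained a filter of the usual kind.

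The 2 genes called by limma with all 9 libraries, Kcnh1 and Kcnn1, are shown with the 250 bases before each of their RefSeq starts in GRCm38.p6, the assembly that mm10 is built on. Capitals mark the GC box, GGGCGG on either strand. The first is chr1:192190527-192190776 on the plus strand, and the others are chr8:70863259-70863508 and chr8:70857009-70857258 on the minus strand.
Kcnh1: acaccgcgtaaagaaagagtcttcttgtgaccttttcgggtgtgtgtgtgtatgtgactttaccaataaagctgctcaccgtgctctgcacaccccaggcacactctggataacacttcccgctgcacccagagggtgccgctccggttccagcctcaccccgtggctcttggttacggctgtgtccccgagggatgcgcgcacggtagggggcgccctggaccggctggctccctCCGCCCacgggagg
Kcnn1, outer start: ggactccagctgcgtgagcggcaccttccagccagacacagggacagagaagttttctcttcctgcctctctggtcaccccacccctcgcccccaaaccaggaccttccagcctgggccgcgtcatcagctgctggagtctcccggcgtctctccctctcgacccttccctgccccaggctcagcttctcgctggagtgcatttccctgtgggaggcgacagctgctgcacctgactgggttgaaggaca
Kcnn1, inner start: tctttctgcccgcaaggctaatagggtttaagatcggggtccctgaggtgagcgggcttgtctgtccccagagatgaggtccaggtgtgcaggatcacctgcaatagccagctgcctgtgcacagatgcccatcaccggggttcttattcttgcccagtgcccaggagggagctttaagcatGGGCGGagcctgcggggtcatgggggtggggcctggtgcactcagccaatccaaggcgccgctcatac
The Kcnh1 window held 1 GC box and had 62.0% G or C with 17 CpG dinucleotides. The outer Kcnn1 window held no GC box and the inner one held 1, with 63.6% and 60.4% G or C. Over all 32851 RefSeq starts, 32.7% of windows of this length held a GC box and the median was 52.4% G or C. The TATA box TATAAA was in none of the 3 windows and in 12.4% of all, and CCAAT, searched on both strands, was in the Kcnh1 and the inner Kcnn1 window and in 33.8% of all. Of the 82 members, 59 had a start in the table, and 46.4% of their 84 windows held a GC box. These matches describe letters and not bound sites.

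The libraries held 18716575 to 25127623 reads assigned to genes, and the normalized sums ranged from 20097781 to 21058156. Fezf2 itself was at 1232, 1010 and 979 normalized counts in wild type, at 223, 193, 242 and 209 in null, and at 907 and 1001 in EnR, where the transgene can add reads. Markers of cortical neurons were abundant in every library (summed level 41127 to 52332 over 6 genes), whereas 6 choroid plexus markers summed to 34.1 at most. Markers of GABAergic interneurons (5 of 5 measured) summed to 5394 to 5694 in wild type, 6669 to 7663 in null and 5346 to 6303 in EnR. Those of deep-layer projection neurons (7 of 7) summed to 12588 to 13964, 7154 to 10106 and 14802 to 15072. This list was chosen as genes lost or altered without Fezf2 and holds Fezf2 itself, so its course was partly fixed in advance. Its member Bcl11b was at 5287, 3591, 2821 and 4193 in null and at 4137 to 4241 in wild type. Markers of striatal neurons (5 of 5) ranged from 802 to 2225 within null alone. They summed to 1443 to 1597 in wild type, to 2016 in EnR bc208 and to 1231 in EnR bc209. Of this list, Drd2, Adora2a and Rarb were highest in null bc204 (174, 368 and 394) and next in EnR bc208 (102, 189 and 250). Ppp1r1b was at 272 in null bc207 and at 856 to 1084 in wild type. Other lists were apart as well. Between wild type and null these were astrocytes and radial glia (5 genes, 12255 to 12699 against 12958 to 15377), the oligodendrocyte lineage (4 genes, 4635 to 4936 against 5278 to 5557) and thalamic neurons (4 genes, 613 to 660 against 689 to 831), all higher in null. Between EnR and null these were endothelium (4 genes, 1559 to 1654 against 1735 to 2111), pericytes and smooth muscle (5 genes, 2734 to 3143 against 3188 to 3561), the oligodendrocyte lineage (5154 to 5164 in EnR) and red blood cells (3 genes, 3114 to 3257 against 3705 to 6661), all lower in EnR. Most of the thalamic sum was Prox1 (486 to 558 in wild type and 554 to 699 in null), and no gene of that list was apart by itself. The part of all these cell types in the values below was not tested. The labelled litter was m1 for wild-type bc201 and bc202 and null bc205 and bc206, m2 for wild-type bc203 and EnR bc209, and m3 for null bc204 and bc207 and EnR bc208. EnR bc209 stood apart from the rest, at 41.6 on the first principal component against -21.6 to 22.6 for the others. Xist was at 12203 and 7895 in the EnR libraries and 10771 in wild-type bc201, but at 58.9 or less in the others, null included. EnR and null therefore differ in the sex-linked transcripts as well as in the transgene, and the parts of both in a difference between them cannot be told apart. In bulk cortex, fewer cells of a type and less RNA per cell cannot be told apart either. Exons of 28 members overlap those of another gene, and the use of strand in counting is not given in the sources used here. Their values are uncertain to that extent, and among the named members these include Kcna6, Kcnh7, Kcnip4, Kcnj3, Kcnj6, Kcnj9, Kcnk2, Kcnma1, Kcnmb4 and Kcnn1.

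In wild-type cortex, Kcnmb4, the neuronal beta subunit of the BK channel, was among the most abundant subunits per kb of the longest transcript, at 625 ± 31.1 normalized counts per kb (SD, n = 3). The K2P channel Kcnk2 (TREK-1) was at 341 ± 16.7 per kb. The libraries of these 2 genes did not overlap in level per kb. Kcnq3, a subunit of the M-channel (319 ± 7.01 per kb), the BK pore Kcnma1 (312 ± 17.97 per kb), the A-type channel Kcnd2 (295 ± 8.45 per kb), Kcna6 (278 ± 14.5 per kb) and the silent modifier Kcnv1 (270 ± 48.9 per kb) came next, and each overlapped with its neighbour in this order. Of the first 20 pairs of neighbours in the order, 15 overlapped. Kcnn1 ranked 13th at 196 ± 2.94, Kcnf1 16th at 178 ± 2.48 and Kcnh1 30th at 106 ± 10.6, all per kb. When the median transcript length of a gene replaced the longest, 5 of the first 8 genes stayed among the first 8, so the order depends on the transcript that is taken.

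**Figure D1:**
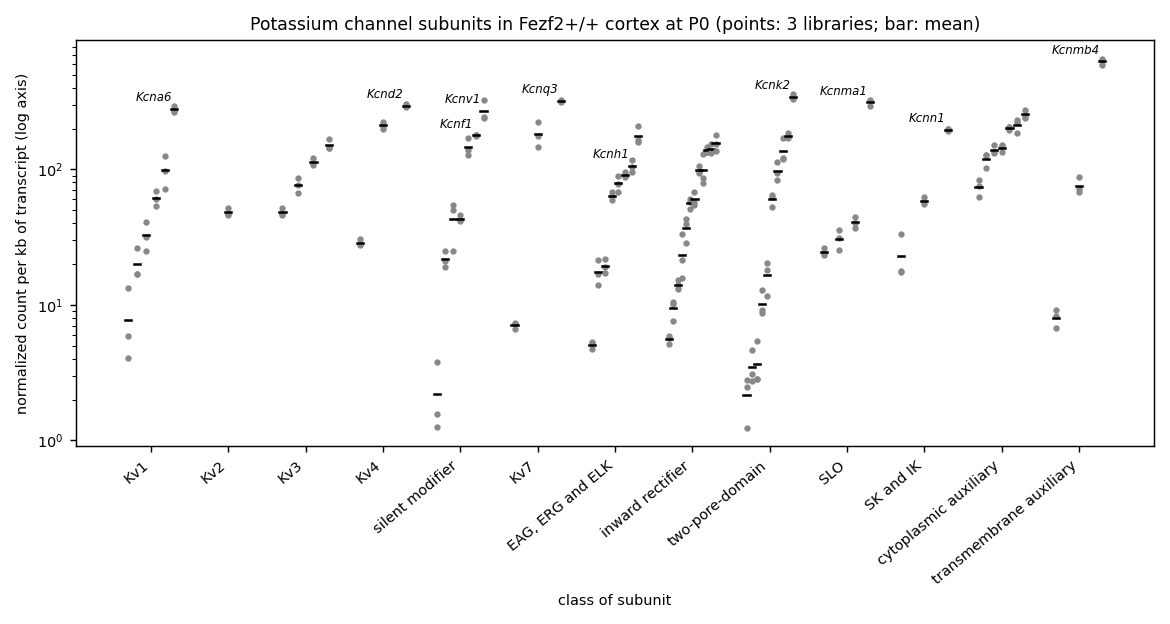
Level of 71 tested subunits in the 3 wild-type libraries (points) with their mean (bar), in normalized counts per kb of the longest transcript on a log axis, by class. Kcnmb4 at 625 per kb lies above the others plotted.

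By class, the 4 SLO genes held 9.003% of the family's summed wild-type level before division by length, most of it from Kcnma1. Cytoplasmic auxiliaries (Kcnab and Kcnip genes, which bind the inner face of Kv1 and Kv4 channels) held 13.3% of the level per kb, led by Kcnip2 at 255 per kb. Neither of these classes was the largest by the measure given for it. The highest member by normalized count was Kcna6 for Kv1, Kcnc1 for Kv3, Kcnd2 for Kv4, Kcnv1 for the silent modifiers, Kcnh7 for the Kcnh family, Kcnj3 for the inward rectifiers, Kcnk2 for K2P, Kcnn1 for SK and IK, and Kcnmb4 for the transmembrane auxiliaries. The family as a whole took a narrow share of the transcriptome. It summed to 46214, 45733 and 49765 normalized counts in wild type, to 48010, 48623, 49310 and 54905 in null and to 48704 and 46265 in EnR, or 0.220% to 0.263% of a library.

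No subunit was called in null against wild type at an adjusted p under 0.05 in limma, where 0.858% of all 16197 genes were called. On recovered reads, edgeR called 0 subunits and DESeq2 called 2, among them Kcnh1 (0.47, adjusted p = 0.0468), where 1.94% of all genes were called. At an unadjusted p under 0.05, 10 subunits were higher and 3 lower, and 13 of 74 compares with 10.8% of all genes by that measure. The fitted change was positive for 51 of 74 subunits and negative for 23, with a median log2 fold change of 0.12 against 0.00 over all genes. With litter as a block, 46 were positive and 28 negative with a median of 0.06. Without bc202, 5 subunits were higher and 1 lower by the unadjusted p, where 6.92% of all genes passed. Without bc201 the counts were 5 and 3 (8.70% of all genes), and without bc203 they were 15 and 2 (11.2%). The 2 genotypes did not overlap in 7 subunits, of which Kcnc2, Kcnf1, Kcng1 and Kcnh1 were higher in null and 3, Kcnj11 among them, lower, where 13.0% of all genes were apart. The median SE of a subunit's change was 0.13, and changes well above this, such as 0.46 in Kcnh1, were not called by limma. A subunit that was not called need not be unchanged.

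Kcnh1 (EAG1), a voltage-gated channel of the Kcnh family on chromosome 1 (GENCODE M21, 192190774 to 192510159, plus strand), was at 692, 757 and 845 normalized counts in wild type and at 880, 1172, 1270 and 926 in null. Every null library was above every wild-type one. The log2 fold change was 0.46 ± 0.14 (SE) with an adjusted p of 0.223 in limma, and the exact permutation test of the mean over libraries gave p = 0.0571, two-sided, where 0.0286 is the smallest it can give. The null libraries were split by litter, with bc205 and bc206 (m1) at 1172 and 1270 and bc204 and bc207 (m3) at 880 and 926.

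Among the other subunits with an unadjusted p under 0.05, the silent modifiers Kcnf1 (log2 fold change 0.37 ± 0.11, adjusted p = 0.238), Kcng1 (0.49 ± 0.18, 0.339) and Kcnv1 (0.35 ± 0.14, 0.403) were higher in null on average. Kcnf1 was at 858, 858 and 838 in wild type and at 972, 1186, 1089 and 1185 in null. The groups did not overlap in Kcnf1, and the spread in wild type was small. Among delayed rectifiers, the Kv3 gene Kcnc2, a channel of fast-spiking interneurons, was at 231, 237 and 259 in wild type and 317, 280, 297 and 356 in null (0.36 ± 0.10, adjusted p = 0.196), and the summed GABAergic marker level given above was also apart between these genotypes. The part of interneuron content in Kcnc2 was not tested. Kcna3 (Kv1.3) had a difference of 0.44 ± 0.17 and the ELK channel Kcnh8 one of 0.48 ± 0.17, with adjusted p of 0.372 and 0.309 in limma. Single libraries or the litter moved some of these values: Kcna3 was at 0.23 without bc201, Kcnv1 at 0.23 without bc207 and Kcng1 at 0.26 with litter as a block.

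Within litter m1 alone, 2 wild-type and 2 null libraries, 7 of 74 subunits were called where 1.44% of all genes were. Among these, Kcnh1 (0.75 ± 0.08, adjusted p = 0.0019), Kcnj2 (0.71 ± 0.11, 0.0206), Kcnn1 (0.52 ± 0.10, 0.038), Kcng1 (0.42 ± 0.08, 0.0434) and Kcnf1 (0.40 ± 0.07, 0.0334) rose in null, and Kcns1 fell (-0.94 ± 0.16, 0.0322). The m3 null libraries did not enter this fit, and litter m3 held no wild-type pup.

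**Figure D2:**
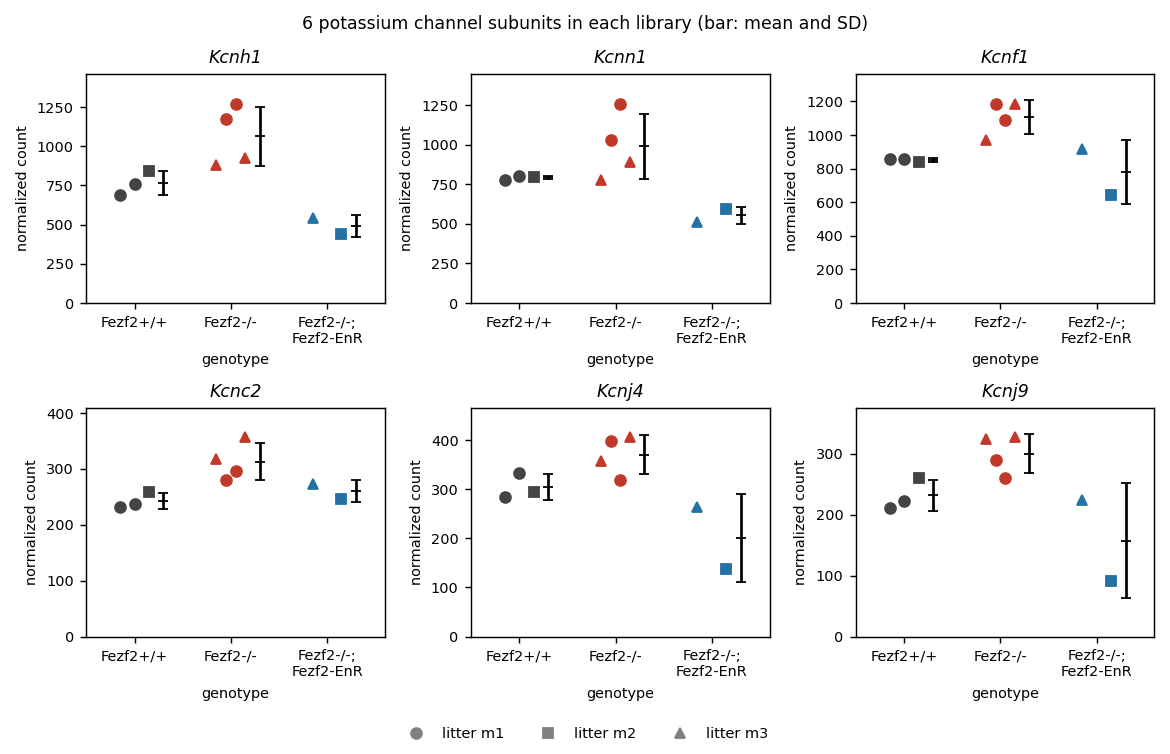
Normalized counts of 6 subunits in each library by genotype, with the symbol giving the litter and the bar the mean and SD. Kcnh1 and Kcnn1 lie lowest in both EnR libraries, whereas Kcnj4 and Kcnj9 reach their lowest values in bc209 (138 and 90.7).

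In EnR against null, Kcnh1 and Kcnn1 fell, the only subunits called by limma at an adjusted p under 0.05. They were 2 of 74 where 0.766% of all genes were called, and 0.432% were called lower. Both were called by edgeR as well, and DESeq2 called 7, where 2.8% of all genes were called, adding Kcnf1, Kcnip4, Kcnj4, Kcnj9 and Kcnmb4, all of them lower. At an unadjusted p under 0.05, 2 subunits were higher and 11 lower, with 16.9% of all genes past that level. The fitted change was negative in 52 of 74 subunits and positive in 22, with a median of -0.10 against 0.00 over all genes. Without bc209, 39 were negative and 35 positive with a median of -0.01. Without bc208, 54 were negative and 20 positive with a median of -0.18. Each of these fits left 1 EnR library. The libraries of the 2 genotypes did not overlap in 20 subunits, 16 of them lower and 4 higher in EnR, compared with 24.6% of all genes.

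Kcnh1 was at 541 and 443 in EnR, below all null libraries (880 to 1270) and also below all wild-type ones (692 to 845). The log2 fold change against null was -1.10 ± 0.15, with an adjusted p of 0.010 in limma. The exact permutation p was 0.0667, which is the smallest that 2 libraries against 4 allow. Within litter m3, the EnR library was at 541 and the null libraries at 880 and 926. In litter m2, EnR was at 443 and wild type at 845. Without bc209 the change was -0.96 and without bc208 it was -1.24, each with 1 EnR library left. The call was lost without bc209, and bc208, at 541, also lay below every null library. Wild-type bc201, with a high Xist level as in EnR, was at 692, the lowest of the wild-type values. The parts of sex and the transgene in Kcnh1 cannot be told apart.

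Kcnn1 (SK1), a calcium-activated channel of the afterhyperpolarization on chromosome 8 (GENCODE M21, 70842049 to 70863258, minus strand), was at 780, 803 and 797 in wild type, 775, 1031, 1257 and 893 in null and 515 and 591 in EnR. The EnR libraries were below every other library, and the null ones spread the most. The log2 fold change against null was -0.82 ± 0.16, with an adjusted p of 0.0426 in limma and the smallest exact p that the design allows. The call was lost on leaving out any of bc201, bc202, bc203, bc205, bc207, bc208 or bc209 (adjusted p from 0.0596 to 0.243) and in a fit of these 2 genotypes alone (0.118), but it held with litter as a block (-0.78, adjusted p = 0.017). Wild-type bc201, which also had high Xist, was at 780, against 803 and 797 in the other wild-type libraries. Null bc204, with Xist at 0, was at 775. The parts of sex and the transgene cannot be told apart here either. Kcnn2 (SK2) and Kcnn3 (SK3), the other measured SK genes, had log2 differences of -0.04 ± 0.12 and 0.58 ± 0.29 and were not called, and the value of Kcnn3 was 0.13 with litter as a block.

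A pair of inward rectifiers had changes as large as these without a call. Kcnj9 (GIRK3), a G-protein-gated channel, was at 324, 290, 260 and 326 in null and 224 and 90.7 in EnR, with a log2 fold change of -1.06 ± 0.27 and an adjusted p of 0.120. Kcnj4 (Kir2.3) was at 358, 398, 319 and 405 in null and 264 and 138 in EnR, with -0.95 ± 0.21 and an adjusted p of 0.083. The EnR libraries lay below null in both genes, and bc209, the library that stood apart, was the lower one. Without bc209 the changes were -0.41 for Kcnj9 and -0.48 for Kcnj4, and without bc208 they were -1.71 (adjusted p = 0.0012) and -1.41 (0.0021), which passed the threshold. Leaving out bc208 gave 8 subunits called, where 6.72% of all genes were called, and leaving out bc209 gave 0. Kcnj6 (GIRK2) had a smaller difference (-0.39 ± 0.17, adjusted p = 0.282), at -0.16 without bc209 and -0.62 without bc208.

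Further members lay lower in EnR by the unadjusted p. Kcnf1 was at 917 and 646 (-0.52 ± 0.13, adjusted p = 0.107), and both values lay under the lowest null library at 972. The ELK channel Kcnh4 was at 67.7 and 47.0 (-0.70 ± 0.20, 0.153). Kcnip4, a calcium-sensing partner of Kv4 channels, was at 287 and 219 (-0.56 ± 0.14, 0.113), and Kcnip2, its relative, at 702 and 522 (-0.38 ± 0.11, 0.163). These values also depended on bc209. Without it the changes were -0.27 for Kcnf1, -0.44 for Kcnh4, -0.37 for Kcnip4 and -0.17 for Kcnip2. Without bc208 they were -0.77 (adjusted p = 0.0084), -0.96 (0.044), -0.76 (0.0288) and -0.60 (0.0161) and passed the threshold. Kcnmb4 was at 850 and 833 against 994 to 1162 in null (-0.32 ± 0.08, 0.115), whereas the BK pore Kcnma1 had a difference of -0.01 ± 0.11. The difference between the changes of the pore and its beta subunit was not tested. The Kv4 genes that Kcnip proteins bind, Kcnd1, Kcnd2 and Kcnd3, had log2 differences of -0.01, -0.01 and 0.10. The signs of the values for Kcnma1, Kcnd1 and Kcnd2 changed when single libraries were left out.

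**Figure D3:**
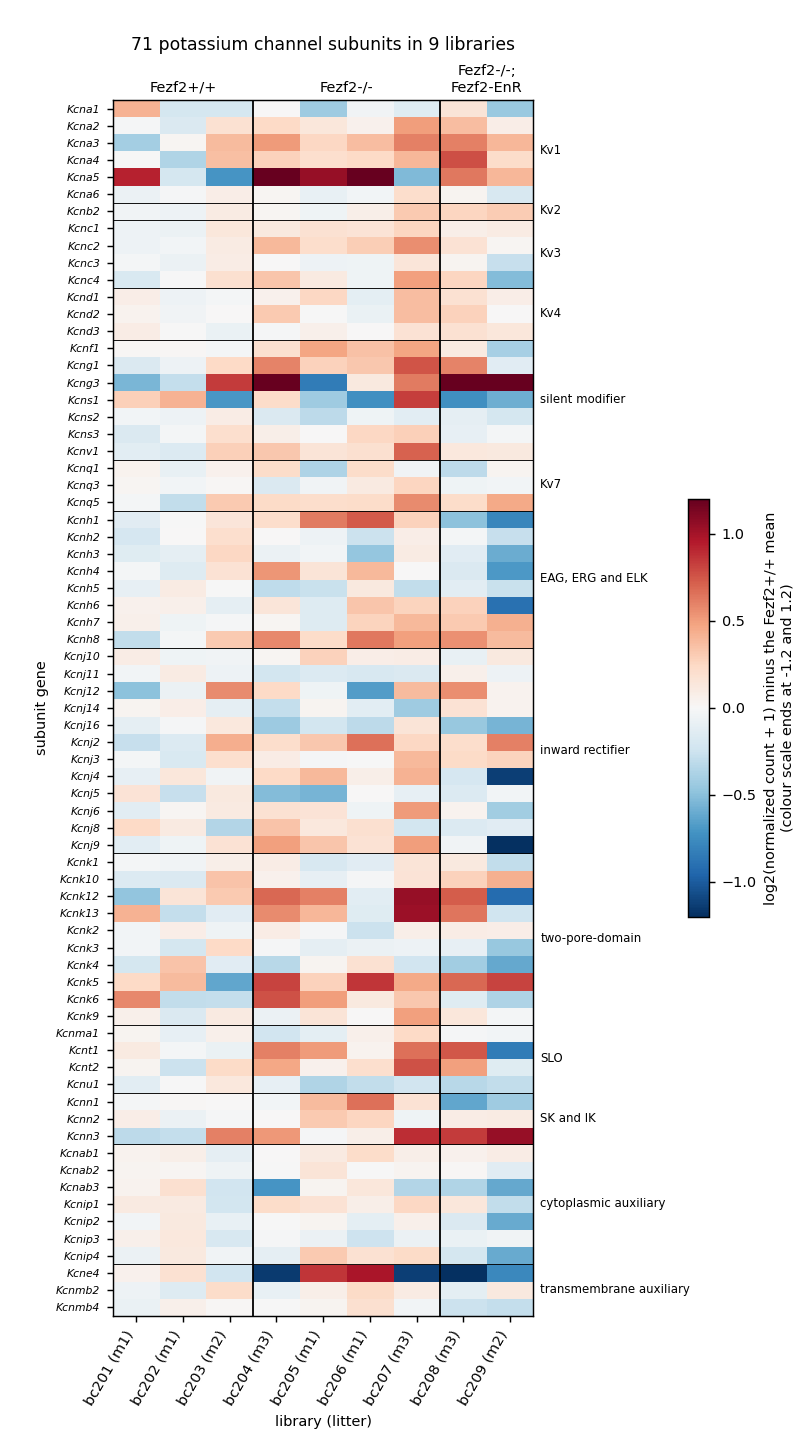
Difference of log2(normalized count + 1) from the wild-type mean for 71 tested subunits (rows, by class) in each library (columns, with litter). Kcnh1 and Kcnn1 are red in the m1 null libraries and blue in both EnR libraries.

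In EnR against wild type no subunit was called by limma, where 0.117% of all genes were, and none by edgeR. DESeq2 called 3, where 3.96% of all genes were called, all lower and Kcnh1 and Kcnn1 among them. Without bc208, limma called 4, where 3.03% of all genes were called (Kcnip2, Kcnj4 and Kcnj9 among them, all lower). At an unadjusted p under 0.05, 9 subunits were higher and 10 lower, 19 of 74, with 19.3% of all genes past that level. These counts were 2 and 7 without bc202, where 10.7% of all genes passed, and 3 and 17 with litter as a block, where 17.3% did. Among the lower ones were Kcnj9 (-0.69 ± 0.29, adjusted p = 0.233), Kcnj4 (-0.67 ± 0.22, 0.169), Kcnh1 (-0.64 ± 0.16, 0.122) and Kcnn1 (-0.52 ± 0.16, 0.154). Without bc209, with 1 EnR library left, Kcnj9 was at -0.04 and Kcnj4 at -0.20. Among the higher ones were Kcnn3 (0.94 ± 0.31, 0.160), Kcna3 (0.50 ± 0.20, 0.212), Kcna4 (0.50 ± 0.21, 0.237) and Kcnh8 (0.47 ± 0.20, 0.235). With litter as a block these 4 were at 0.46, 0.26, 0.29 and 0.31 and Kcnn1 was at -0.31. Kcna3 was at 0.30 without bc201, and Kcna4 at 0.32 without bc202, 0.22 without bc208 and 0.78 without bc209. Kcnn3 was at 146, 148 and 276 in wild type, 261, 180, 191 and 336 in null and 327 and 376 in EnR, and the m1 libraries were the 4 lowest. The 29 subunits whose EnR and wild-type libraries did not overlap compare with 34.6% of all genes.

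**Figure D4:**
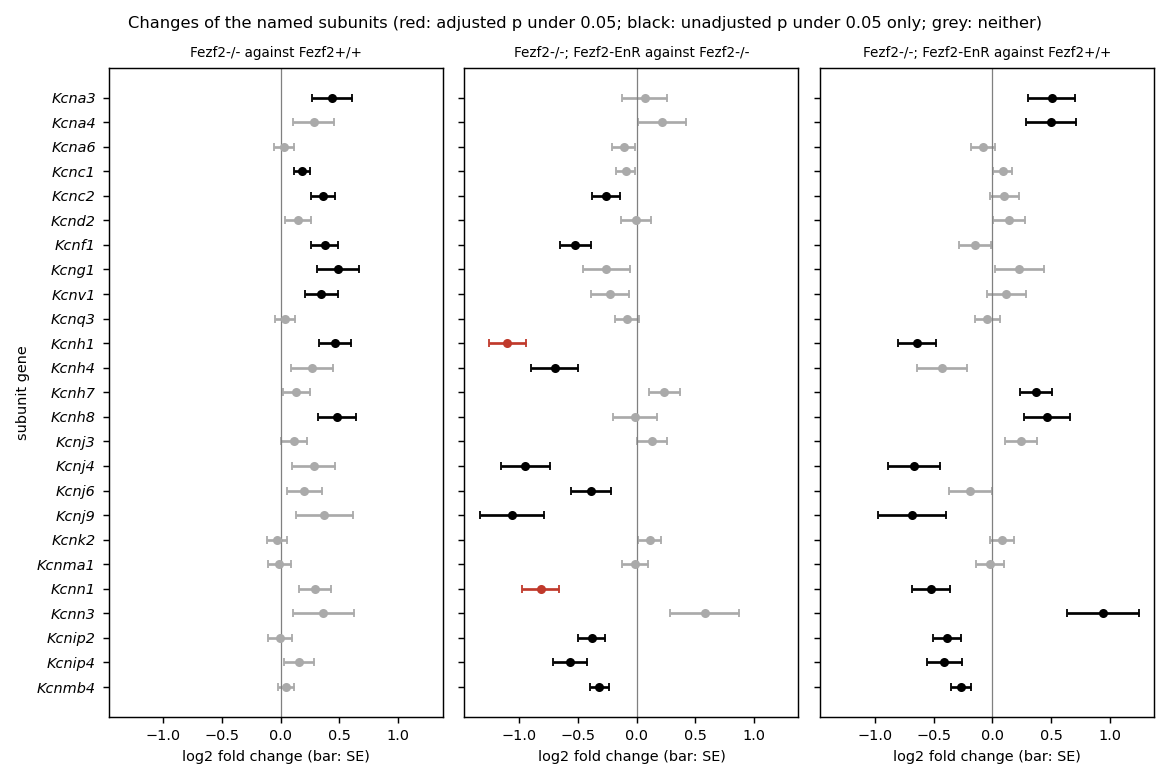
Log2 fold change of 25 named subunits in the 3 comparisons, with the SE as bar. Red points passed an adjusted p under 0.05 in limma (Kcnh1 at -1.10 and Kcnn1 at -0.82, both in EnR against null), black points an unadjusted p under 0.05 only.

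The subunits whose pattern over the 9 libraries was most like that of Kcnh1 were Kcnn1 (Pearson r = 0.93 of log2(normalized count + 1)), Kcnmb4 (0.91), Kcnip4 (0.88), Kcnf1 (0.83) and Kcnh4 (0.81). All points share genotype, litter and library, so this is a description. At the other end stood Kcnj11 (Kir6.2, the pore of the ATP-sensitive channel) at -0.63, Kcnk2 at -0.61 and Kcng3 at -0.59. Kcnj11 was at 302, 330 and 296 in wild type, 265, 276, 270 and 275 in null, and 324 and 296 in EnR, and its log2 changes were -0.19 ± 0.08 in null against wild type (adjusted p = 0.431) and 0.19 ± 0.09 in EnR against null (0.320). The comparisons with null share the null libraries.

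The m1 and m3 libraries of null, 2 of each, did not overlap in 40 of 74 subunits, 11 higher and 29 lower in m1, where 47.9% of all genes were apart. Kcne4, a small subunit that inhibits Kv channels, was at 39.2 and 42.7 in m1 and 9.04 and 9.14 in m3. Kcns1 was at 81.7 and 65.7 in m1 and 129 and 197 in m3. Striatal markers also differed within null, from 802 in bc207 to 2225 in bc204 of the same litter, and their part in these values was not tested.

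Of 31 partners of potassium channels without a Kcn symbol, 28 were measured and none was called by limma or edgeR in any comparison, while DESeq2 called 1 in null against wild type, Dpp10, and 1 in EnR against null, both lower, where 1.94% and 2.8% of all genes were called. At an unadjusted p under 0.05, 3 were higher and 2 lower in null against wild type, 2 higher and 5 lower in EnR against null, and 3 higher and 6 lower in EnR against wild type. These 5, 7 and 9 of 28 compare with 10.8%, 16.9% and 19.3% of all genes. Dpp10, which speeds up Kv4 channels, was at 2535, 2249 and 2436 in wild type, 1713, 1747, 2188 and 1955 in null and 2135 and 2179 in EnR. Its log2 fold change in null was -0.35 ± 0.09 (adjusted p = 0.136), and it was called without bc206 (-0.42, adjusted p = 0.0471).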

How the data were processed

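RNA-seq libraries were made from polyadenylated RNA of P0 cortex, 1 pup per library. The submitters' processing notes name mm10, Bowtie, STAR and DESeq. The deposited table holds normalized counts, a signal that the authors obtained by dividing gene counts by a size factor per library. Values were whole multiples of 1 read in 100.0% of those examined in each library (tolerance 0.1 reads), so reads were recovered for the count tests. Each library, and so each p-value, stands for 1 pup, and depth is given with the results.

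The main test was limma 3.58.1 (trend, R 4.3.3) on log2(normalized count + 1) over 16197 genes with a mean of at least 10, with all 9 libraries, 1 coefficient per genotype and Benjamini-Hochberg adjustment over all genes. Fold changes are on that scale and understate changes of low genes. Alternatives were pseudocounts of 0.1 and 10, no filter, a mean of at least 50, TMM, median-ratio scaling, fits to the genotypes compared or to litter m1 by itself, a block for litter, omission of 1 library at a time, edgeR 4.0.16 and DESeq2 1.42.0 on recovered reads, an unadjusted p, and the median transcript length. The fit was tested on simulated data.

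Named subunits were Kcnh1, those called, the 8 with the largest change per comparison among those with unadjusted p under 0.05 and a mean of at least 50, the 8 highest per kb in wild type, the highest of each class, and the 5 most like Kcnh1. Others are named as examples chosen after their values were seen. Members, classes, marker lists and the partner list were chosen with earlier results of these data known. Lengths and exon overlaps came from GENCODE M21, matched by gene identifier, and promoters from RefSeq. The selectivity filter was found by a pattern search of the longest reading frame of the longest coding transcript. Some genes that the rule or the partner list includes are not reported here by name or plotted, but they stay in the counts.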

Additional observations from a re-analysis of the deposited data

How the results depend on the processing

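No paired analysis by replicate number was possible because each library label is used once, and litter served as the block. In null against wild type, 0 subunits called became 1 with only these genotypes (1.36% of all genes). The count was 1 with litter as a block (0.772%) and 7 in litter m1 alone (1.44%). DESeq2 gave 2 (1.94%, Kcnh1 among them) and the unadjusted p gave 13 (10.8%). Leaving out each library gave 0 to 1, with 1 without bc203 (0.543%). In EnR against null, 2 became 1 with only these genotypes (Kcnh1, where 0.414% of all genes were called). The count was 7 with DESeq2 (2.80% of all genes, all 7 lower) and 13 by unadjusted p (16.9%). Leaving out each library gave 0 to 8 calls, 8 without bc208, where 6.72% of all genes were called, and 0 without bc209. In EnR against wild type, 0 became 3 with DESeq2 (Kcnh1 and Kcnn1 among them, with 3.96% of all genes) and 19 by unadjusted p (19.3%). Without bc203 the count was 2, where 1.12% of all genes were called. It also moved without bc208, a fit with 1 EnR library. The edgeR calls of subunits equalled those of limma in number. For partners, DESeq2 called 1 in null against wild type (Dpp10), 1 in EnR against null, and unadjusted p gave 5, 7 and 9 in the 3 comparisons. Leaving out each library gave 0 to 1, 0 to 4 and 0 to 3 partners. The first 8 by level per kb kept 5 members with the median transcript. Of 675 recomputed changes of single genes, 633 kept their sign and stayed on the same side of the threshold, 22 newly passed it, 9 no longer did and 11 changed sign. Those 11 were small differences of EnR against null, in Kcnd1 (-0.095 to 0.069 when each library was left out), Kcnd2 (-0.14 to 0.13), Kcnma1 (-0.084 to 0.073) and Kcnn2 (-0.097 to 0.023, and 0.019 with litter as a block). The causes were not tested. With 2 EnR libraries, 1 of them apart from the rest, small changes can go uncalled, although DESeq2 called Kcnmb4 at -0.32 in EnR against null (adjusted p = 0.0307).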
